A study of Mus musculus with 63 samples.

Results

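Kupffer cells are the macrophages that live in the blood sinusoids of the liver. The genes described here are 10 that resident Kupffer cells of the mouse are known to use: Clec4f, Timd4, Vsig4, Marco, Cd5l, Cd163, Folr2, C1qa, C1qb and C1qc. They were chosen by name, 1 row of the table for each symbol, out of 15616 genes. They were followed in 63 liver RNA libraries over 14 days in mice given tamoxifen.

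KO mice were males with the tamoxifen-inducible Cre transgene Alb-Cre-ERT2tg and the conditional Hcfc1 lox allele on their single X chromosome (Alb-Cre-ERT2tg; Hcfc1 lox/Y, 26 libraries). Het mice were females with the same transgene and 1 conditional and 1 intact allele (Alb-Cre-ERT2tg; Hcfc1 lox/+, 12 libraries). WT mice were males without Cre (25 libraries); the protocol gives them the Hcfc1 lox/Y allele, whereas their genotype label reads C57BL/6. All 3 groups were 10 to 14 weeks old and received tamoxifen by intraperitoneal injection, 1 mg per mouse, 3 times at 24 h intervals from day 0, and livers were taken on days 0 to 14. The albumin promoter drives Cre in hepatocytes, so Kupffer cells were not the cells in which Hcfc1, the gene of a transcriptional co-regulator, was to be deleted. No mice followed over the days without tamoxifen and no WT females were in the set analysed here. The drug, its ethanol and oil vehicle, handling and time thus cannot be told apart, and in Het livers neither can sex and genotype. Whether day 0 livers were taken before or after the first injection is not given in the sources used here. Each library came from 1 mouse.

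As background, resident Kupffer cells take up particles, aged red cells and dying cells from portal blood. Many of the genes that mark them encode the surface receptors for this task. Clec4f (a C-type lectin that binds sugars), Marco (a scavenger receptor for bacteria and particles), Cd163 (a receptor for haptoglobin-haemoglobin complexes) and Timd4 (a receptor for phosphatidylserine on dying cells) are of this kind. Vsig4 is a receptor for fragments of complement C3, and Folr2 is a folate receptor. Cd5l is a secreted protein of macrophages. C1qa, C1qb and C1qc encode the A, B and C chains of C1q, the recognition protein that starts the classical complement pathway. The chains assemble with each other, and macrophages are a main source of them.

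On the mm9 build used by the authors, the C1q genes lie close together on the minus strand of chromosome 4, C1qb at 136436044 to 136442102, C1qc at 136445719 to 136448980 and C1qa at 136451832 to 136454718. Marco is on chromosome 1 (122371115 to 122401661, minus strand). Cd163 (124254669 to 124280545, plus strand) and Clec4f (83594536 to 83606181, minus strand) are both on chromosome 6. Vsig4 is on the X chromosome (93442542 to 93488777, minus strand), and the other members are on chromosomes 3 (Cd5l), 7 (Folr2) and 11 (Timd4). No other annotated gene overlapped any of the 10.

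The promoters of 4 genes are shown because the results turn on them: C1qb and C1qc, whose levels ran almost parallel, and Marco and Cd163, which departed from them in opposite directions. Each is the 250 bases before the start of the gene, 5′ to 3′ on the strand of the gene, from RefSeq on GRCm38.p6, a later build than that of the gene positions above. The stretches are chr4:136886201-136886450 (minus strand) for C1qb, chr4:136892915-136893164 (minus) for C1qc, chr1:120505025-120505274 (minus) for Marco and chr6:124304401-124304650 (plus) for Cd163. Capitals mark matches, on either strand, to 3 short words. The PU box is GAGGAA, found in binding sites of the macrophage factor PU.1. The ETS word is GGAAGT, found in binding sites of the wider ETS family, to which PU.1 belongs. The Maf word is TGCTGA, found in binding sites of Maf factors.
C1qb: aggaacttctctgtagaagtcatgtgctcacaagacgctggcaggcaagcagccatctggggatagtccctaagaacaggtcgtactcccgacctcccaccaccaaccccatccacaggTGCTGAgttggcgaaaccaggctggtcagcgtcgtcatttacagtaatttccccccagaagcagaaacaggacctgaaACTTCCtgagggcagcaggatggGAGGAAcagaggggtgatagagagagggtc
C1qc: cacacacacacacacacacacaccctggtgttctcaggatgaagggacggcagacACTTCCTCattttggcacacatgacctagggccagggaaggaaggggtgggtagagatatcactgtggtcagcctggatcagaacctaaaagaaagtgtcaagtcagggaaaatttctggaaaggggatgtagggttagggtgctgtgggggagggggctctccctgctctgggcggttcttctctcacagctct
Marco: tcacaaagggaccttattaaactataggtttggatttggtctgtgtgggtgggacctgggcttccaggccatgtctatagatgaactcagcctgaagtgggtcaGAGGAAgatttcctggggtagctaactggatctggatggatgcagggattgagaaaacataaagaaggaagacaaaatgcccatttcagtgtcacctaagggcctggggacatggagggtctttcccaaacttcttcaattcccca
Cd163: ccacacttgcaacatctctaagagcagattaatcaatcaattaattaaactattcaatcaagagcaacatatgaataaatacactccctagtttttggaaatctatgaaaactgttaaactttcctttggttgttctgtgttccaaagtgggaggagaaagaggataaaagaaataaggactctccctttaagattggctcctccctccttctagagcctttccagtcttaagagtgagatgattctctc
The C1qb stretch held, from left to right, the Maf word, the ETS word on the other strand and the PU box. In C1qc an ETS word and a PU box on the other strand overlapped. Marco held 1 PU box, and these letters were not in the Cd163 window. RefSeq had 10 promoter entries for 9 of the 10 members, of which 5 held the PU box, 6 the ETS word and 6 the Maf word. Of all 32851 mouse promoter stretches of this length, 23.3% held the PU box, 19.7% the ETS word and 16.1% the Maf word. The TATA box letters TATAAA were in 0 of the 10 entries and in 12.4% of all stretches. These matches are a description of letters and not of bound sites.

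The deposited values are log2 RPKM (reads per kilobase of exon, scaled to library size), and levels below are RPKM. Estimated depth was 20.9M to 55.0M reads in KO, 27.9M to 47.9M in Het and 17.6M to 52.3M in WT libraries. All 10 members passed the filter on low values in every comparison and none was at 0 in any library. Hcfc1 itself measured 21.6 to 47.8 RPKM in KO livers of days 10 to 14 and 5.96 to 9.87 RPKM in WT livers. The conditional allele removes part of that gene and the table gives 1 value for the whole of it, so this does not check the deletion. Because the median gene also shifted between groups, tests were run on log2 values centred on the median tested gene of each library, with limma. "Rose", "fell", "higher" and "lower" of a test mean a Benjamini-Hochberg adjusted p under 0.05 over all tested genes, with the same sign on centred and on deposited values. Log2 changes are given ± SE. On this scale the median of all tested genes lay between -0.06 and 0.08 in each of the 21 comparisons.

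In WT males, which had no Cre, all 10 genes rose after the start of tamoxifen. The rise was seen from days 3 to 5, was largest by its median over the 10 at days 6 to 9, and was still present at days 10 to 14. At days 6 to 9 it ranged over the members from 3.88-fold (C1qa) to 11.0-fold (Marco). In bulk liver RNA, more cells of a type and more RNA per cell cannot be told apart. By days, 0 of the 10 passed at days 1 to 2 with limma (5.41% of all tested genes were called in either direction), where 2 members, Marco and Cd163, were under an unadjusted p of 0.05. All 10 were higher at days 3 to 5, against 12.4% of all tested genes, with a median log2 change of 1.26. All 10 were higher at days 6 to 9 (18% of all genes; median 2.23) and at days 10 to 14 (16% of all genes; median 1.82).

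Among the receptors, Clec4f stood at 76.7 to 159 RPKM in the 8 WT livers of days 6 to 9 (median 96.8), against 18.4 and 9.96 RPKM in the 2 WT livers of day 0. Every later liver of that window was above both day 0 livers, and the change was 2.21 ± 0.32 (adjusted p = 6.3e-06). By day, Clec4f measured 11.0 and 11.4 RPKM on day 1, 31.6 and 31.5 on day 2, 37.6 and 33.7 on day 3, 42.4 and 38.9 on day 4, and 66.3 and 76.0 on day 5. It reached 159 and 97.0 RPKM on day 7, where its WT day mean was highest, and single livers of days 10 to 14 held 124, 78.9, 77.0, 47.1 and 83.6 RPKM. The level on day 13 was thus below every liver of days 6 to 9, though above day 0.

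Marco had the widest WT range. It measured 23.6 to 54.0 RPKM in WT livers of days 6 to 9 (median 28.7), against 4.55 and 0.792 RPKM on day 0 (3.46 ± 0.44, adjusted p = 1.13e-06). The ratio within the day 0 pair was wider for Marco than for any other member, so its fold rests on an uncertain start. Through days 1 to 4 Marco stayed between 4.07 and 9.96 RPKM, then stood at 25.6 and 26.6 RPKM on day 5. Clec4f was above both day 0 livers in each WT liver of days 2 to 4, and Marco in each of days 1, 3 and 4. On day 2 Marco held 4.51 and 4.07 RPKM, just under the higher day 0 liver.

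Cd163 and Timd4 were the least abundant members at days 6 to 9 by RPKM, a scale per length of exon. Cd163 measured 5.05 to 12.5 RPKM in WT livers of days 6 to 9 (median 6.78), against 0.823 and 0.697 RPKM on day 0 (2.57 ± 0.49, adjusted p = 0.000206). Already on day 2 the WT livers held 3.10 and 2.88 RPKM of Cd163. Timd4 measured 7.18 to 21.4 RPKM in WT livers of days 6 to 9 (median 10.6), against 2.05 and 0.799 RPKM on day 0, a 5.39-fold change. Both receptors were above their day 0 pair in every WT liver of days 6 to 9.

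Vsig4 rose 3.89-fold by days 6 to 9 and Folr2 4.75-fold. The secreted Cd5l rose 6.10-fold, with 111 to 256 RPKM in WT livers of days 6 to 9 (median 148) against 23.6 and 11.0 RPKM on day 0. The C1q chains moved together. C1qb measured 75.4 to 144 RPKM at days 6 to 9 (median 89.9), against 18.7 and 9.73 RPKM on day 0, and the changes of C1qa, C1qb and C1qc were 1.95 ± 0.25, 2.13 ± 0.27 and 2.21 ± 0.25, with adjusted p at most 1.26e-06.

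In all 10 members, replicate 2 of WT day 0 was the lower of the pair, and without it 0 of 10 passed at days 3 to 5. By days 6 to 9 all 10 passed whichever library was left out. The WT livers of days 0, 1 and 3 to 8 came in 2 sets that the column descriptions mark B_1 and B_2, 1 liver of each per day. Within the first set 9 members passed at days 6 to 9 and within the second all 10, with Clec4f changes of 1.81 and 2.58 and Marco changes of 2.19 and 4.70. Without centring the changes would be larger, since the median of all genes in the deposited values was 0.62 higher on the log2 scale at days 6 to 9 than on day 0.

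**Figure D1:**
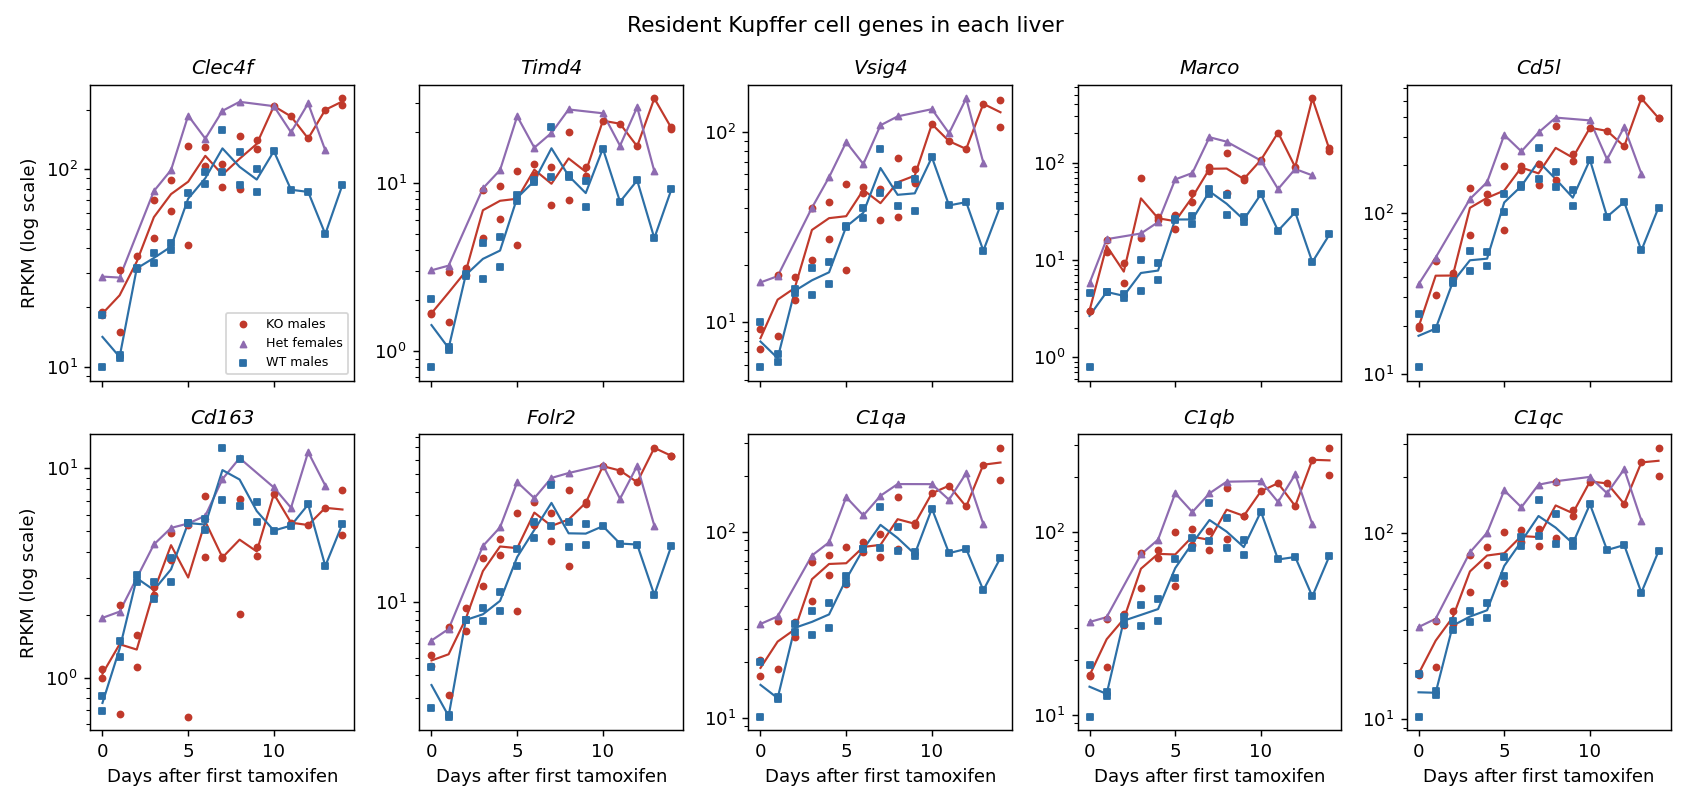
RPKM of each of the 10 genes (log axis) by day, with 1 point per liver (KO circles, Het triangles, WT squares) and lines through the day means. By day mean, each gene in WT males is lowest on day 0 or 1, and Marco in KO males spans 3.03 RPKM (day 0 mean) to 458 RPKM (day 13).

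In KO males, 9 of the 10 genes were higher at days 10 to 14 than on day 0, and Marco changed most. By days, 0 passed at days 1 to 2 with limma (7.99% of all genes called; Marco and Cd5l were under an unadjusted p of 0.05). With the replicate number as a block Marco passed there (1.44, adjusted p = 0.0404). At days 3 to 5, 9 were higher (22.4% of all genes), with Cd163 the exception at 0.70 ± 0.51 (adjusted p = 0.284). All 10 were higher at days 6 to 9 (30.6% of all genes; median 1.89), and 9 at days 10 to 14 (35.6% of all genes; median 2.12). There Cd163 measured 1.13 ± 0.51 (adjusted p = 0.0521).

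Marco in KO livers measured 107, 204, 90.2, 458, 141 and 132 RPKM on days 10, 11, 12, 13, 14 and 14, against 3.03 and 3.03 RPKM on day 0 (4.34 ± 0.46, 20.3-fold, adjusted p = 8.85e-09). The KO liver of day 13 held the most Marco of all 63 libraries, and the KO livers of day 1 already held 15.9 and 12.0 RPKM. Clec4f in KO livers measured 143 to 229 RPKM at days 10 to 14 (median 205), against 18.3 and 19.0 RPKM on day 0, a 3.79-fold change. No KO liver of days 10 to 14 overlapped with the day 0 pair for either gene.

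Cd5l in KO livers measured 261 to 519 RPKM at days 10 to 14 (median 365), against 19.9 and 19.3 RPKM on day 0 (6.79-fold). C1qb measured 139 to 290 RPKM (median 195), against 16.2 and 16.5 RPKM on day 0 (4.37-fold). Cd163 measured 4.82 to 7.89 RPKM (median 5.99), against 1.05 ± 0.0726 RPKM on day 0 (SD, n = 2). Its KO livers of days 10 to 14 were thus all above day 0 as well, although the test on centred values was not passed.

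Day 5 of the KO course had unlike livers: replicate 1 held 41.2 RPKM of Clec4f and 0.653 RPKM of Cd163, while replicate 2 held 132 and 5.37 RPKM. Timd4, Vsig4 and Folr2 were 5.02-, 4.87- and 4.35-fold higher at days 10 to 14 than on day 0.

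In Het females all 10 genes were also higher at days 6 to 8 and at days 10 to 13 than at days 0 to 1. At days 3 to 5, 8 were higher (3.5% of all genes), and Marco (1.05 ± 0.50, adjusted p = 0.234) and Cd163 (0.68 ± 0.23, adjusted p = 0.102) did not pass. All 10 were higher at days 6 to 8 (9.54% of all genes; median 1.79) and at days 10 to 13 (13.5% of all genes; median 1.94). The count at days 3 to 5 was 0 without the Het liver of day 1, 4 or 5, and 2 without that of day 0.

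Clec4f in Het livers measured 209, 154, 216 and 125 RPKM on days 10 to 13, against 28.7 and 28.3 RPKM on days 0 and 1 (1.94 ± 0.24, adjusted p = 0.00209). Marco measured 78.3, 183 and 164 RPKM on days 6 to 8, and 105, 53.6, 86.2 and 74.1 RPKM on days 10 to 13, against 5.79 and 16.4 RPKM on days 0 and 1. The Het livers of days 7 and 8 held the most Marco of that group, where KO livers held the most after day 9.

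Cd163 in Het livers measured 8.10, 6.48, 11.9 and 8.27 RPKM on days 10 to 13, against 1.93 and 2.07 RPKM on days 0 and 1 (1.43 ± 0.22, adjusted p = 0.00254). The change of the Het females was set against that of WT males over the same days. All 12 Het libraries were in the set marked B_1, whereas the WT livers of days 0 and 1 came from B_1 and B_2. With limma 0 of 10 members differed (0.186% of all genes called, and 0 members under an unadjusted p of 0.05), with differences between -0.21 and 0.22. The 95% interval ran from -0.80 to 0.93 for Clec4f and from -1.14 to 1.47 for Marco, so differences within these bounds remain compatible with the data.

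**Figure D2:**
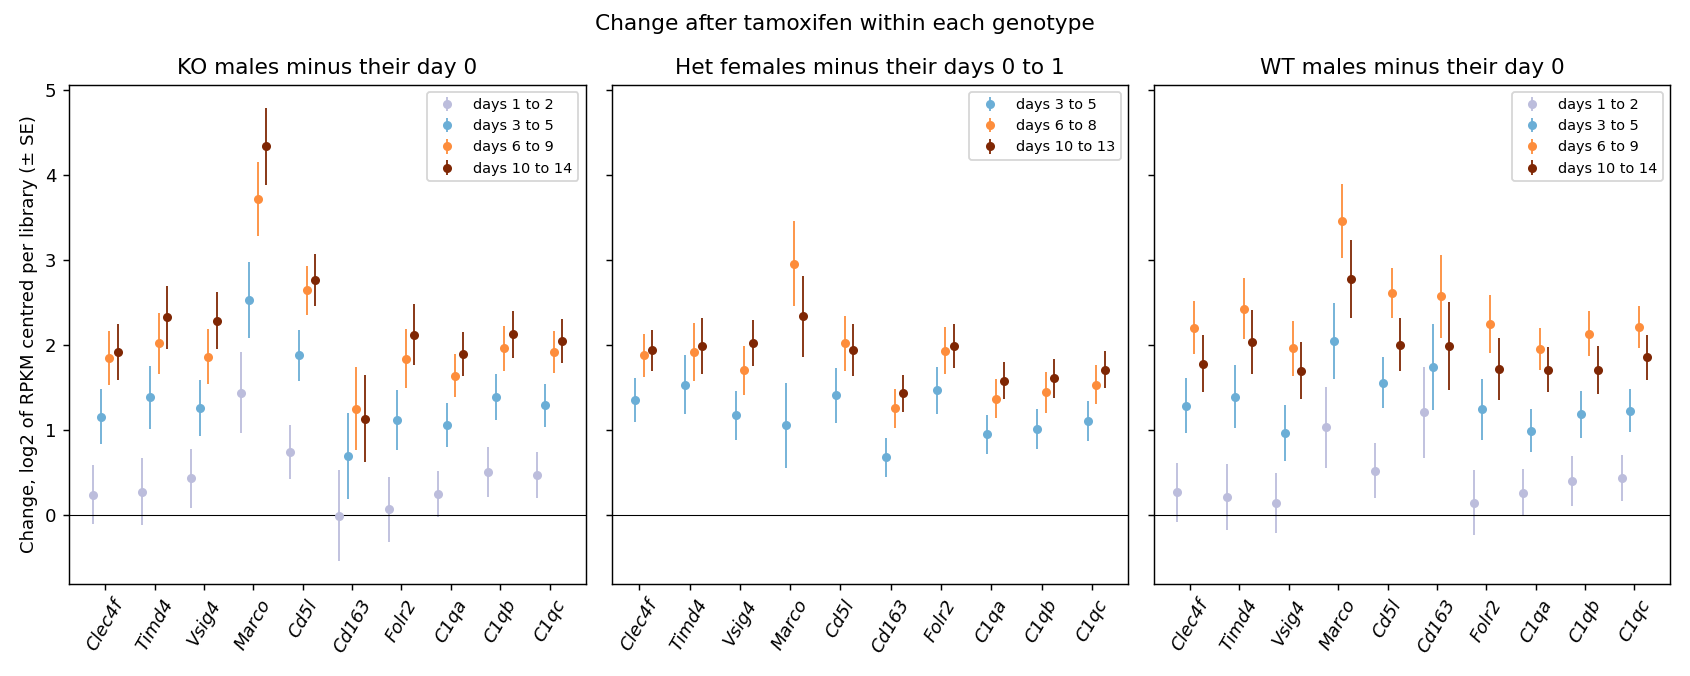
Log2 change of each gene (± SE, centred values) by window of days in KO, Het and WT livers, against day 0 in males and days 0 to 1 in Het females. The largest WT change at days 6 to 9 is that of Marco (3.46), and at days 10 to 14 Marco stands at 4.34 in KO males while Cd163 stands at 1.13.

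Set against WT males on the same days, KO males differed in most members only at days 10 to 14, and the 10 did not move as 1 group. Marco was higher in KO at days 3 to 5, 6 to 9 and 10 to 14. Cd163 was lower in KO at days 6 to 9. At days 10 to 14, 7 of the 10 were higher in KO: Marco, Cd5l, Folr2, Vsig4 and the C1q chains.

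On day 0, 0 of 10 differed with limma (0.0655% of all genes called; 0 members under an unadjusted p of 0.05), and at days 1 to 2 again 0 (10.9% of all genes), with Marco alone under an unadjusted p of 0.05 (0.98 ± 0.39, adjusted p = 0.0911). At days 3 to 5 only Marco of the 10 passed, against 36.1% of all genes called. It measured 17.0 to 69.0 RPKM in KO livers (median 26.9) and 4.77 to 26.6 RPKM in WT livers (median 9.68), a difference of 1.06 ± 0.32 (2.09-fold, adjusted p = 0.00729). With each day and replicate number as a block Cd5l passed too (0.50, adjusted p = 0.0246), which made 2 members. Leaving out KO day 5 replicate 1 raised the count of members to 8.

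In neither set of libraries did a member pass on its own at days 3 to 5, with Marco at 1.03 and 1.09.

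At days 6 to 9, 2 of 10 members passed, against 53.9% of all genes. Marco measured 39.4 to 125 RPKM in KO livers (median 68.0) and 23.6 to 54.0 RPKM in WT livers (median 28.7), with overlap (0.84 ± 0.28, 1.78-fold, adjusted p = 0.0104). Cd163 measured 2.02 to 7.38 RPKM in KO livers (median 3.79) and 5.05 to 12.5 RPKM in WT livers (median 6.78), 0.515-fold (-0.96 ± 0.31, adjusted p = 0.00906). The haemoglobin receptor and the scavenger receptor thus differed in opposite directions in the same livers.

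The other 8 lay between -0.12 and 0.22 in that window, Clec4f with a 95% interval from -0.41 to 0.41. Within each set of libraries the differences had the same signs, Marco 1.08 and 0.68 and Cd163 -0.98 and -0.95, but 0 members passed in either set. The Cd163 call was lost without 1 of 5 single libraries: KO day 6 replicate 1, KO day 8 replicate 2, WT day 7 replicate 1, WT day 8 replicate 2 or WT day 9 replicate 2.

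At days 10 to 14, 7 members were higher in KO, against 38.6% of all genes, with a median over the 10 of 0.58. Marco measured 90.2 to 458 RPKM in KO livers (median 136) and 47.5, 20.0, 31.0, 9.54 and 18.3 RPKM in WT livers, with no overlap (2.14 ± 0.34, 4.40-fold, adjusted p = 4.7e-06). Cd5l measured 261 to 519 RPKM in KO livers (median 365) and 58.8 to 215 RPKM in WT livers (median 109). Its difference was 0.95 ± 0.23 (1.93-fold, adjusted p = 0.000725). The Cd5l levels did not overlap in RPKM, where KO lay wholly above WT for 52.5% of all tested genes, but they overlapped after centring. Folr2, at a median of 58.9 RPKM in KO livers and 20.7 RPKM in WT livers, was 1.73-fold higher (0.79 ± 0.27, adjusted p = 0.0110).

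Differences of the complement genes were smaller. C1qb was 0.61 ± 0.21 higher in KO (adjusted p = 0.0114), C1qc 0.48 ± 0.19 (0.0305), C1qa 0.46 ± 0.19 (0.0357) and the C3 fragment receptor Vsig4 0.59 ± 0.25 (0.0378). C1qb measured 139 to 290 RPKM in KO livers and 44.5 to 130 RPKM in WT livers. Clec4f (0.51 ± 0.25, adjusted p = 0.0689), Timd4 (0.58 ± 0.28, adjusted p = 0.0656) and Cd163 (-0.49 ± 0.38, adjusted p = 0.254, 95% interval -1.28 to 0.30) did not pass. With the replicate number as a block Timd4 passed as well (0.61, adjusted p = 0.0256). That fit also left out the KO liver of day 14 that carries no number. In RPKM, Clec4f stood at 143 to 229 in KO livers and 47.1 to 124 in WT livers, and Timd4 at 16.5 to 31.9 in KO livers and 4.70 to 16.0 in WT livers.

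In deposited RPKM the KO livers of days 10 to 14 lay wholly above the WT livers for 9 of the 10, all but Cd163, and so did 52.5% of all tested genes. After centring this held for Marco and Folr2, 2 of the 10, and for 23.2% of all genes. The median gene was 0.85 higher in KO on the deposited log2 scale in that window. The count of 7 depended on single livers. It fell to 2 without the KO liver of day 13, to 3 without the WT liver of day 13, and to 4 without the KO or WT liver of day 11 or the WT liver of day 14.

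The change from day 0 in KO was also tested against that in WT. With limma 0 of 10 passed in any window (0.286%, 11.1%, 19.4% and 31.2% of all genes called in order of time). No member was under an unadjusted p of 0.05 before days 10 to 14, where Marco alone was, at 1.56 ± 0.65 (95% interval 0.22 to 2.90, adjusted p = 0.0515). For Cd163 the difference of changes was -1.33 at days 6 to 9 (95% interval -2.75 to 0.10). With the replicate number as a block, and without the unnumbered KO liver of day 14, Marco passed at 1.60 (adjusted p = 0.0291). In the deposited values without centring 5 of the 10 members passed at days 10 to 14, as did 58.3% of all genes, so that count lay near the background.

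**Figure D3:**
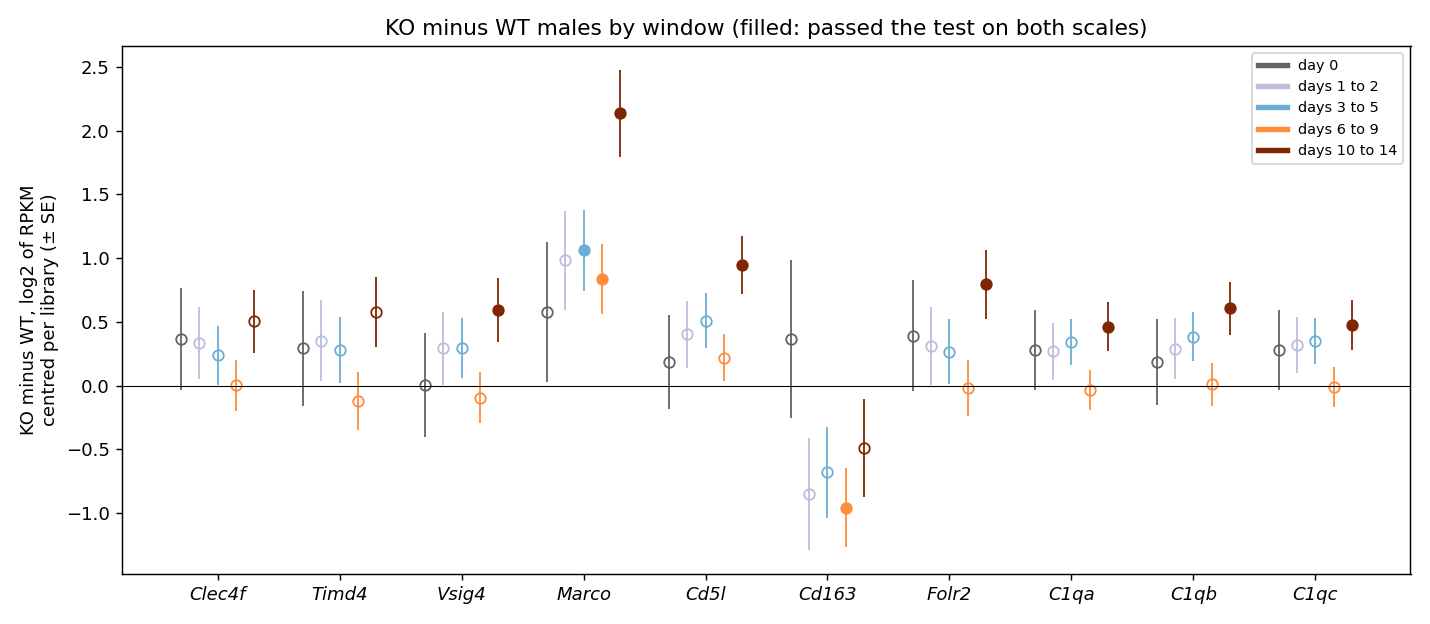
Log2 difference KO minus WT males (± SE, centred values) of each gene in 5 windows of days; filled points passed the test on centred and deposited values. Marco stands at 1.06, 0.84 and 2.14 in the last 3 windows, and Cd163 at -0.96 in days 6 to 9.

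Because C1qa, C1qb and C1qc ran so closely together, they served as a common scale within a library. Percentages below are of the mean RPKM of the 3 chains in the same liver. For the tests, the mean of their log2 values was subtracted from the log2 value of each gene instead. The difference between KO and WT was refitted across all genes in this form, a comparison chosen after the data were seen. On this scale Cd163 was lower in KO from days 1 to 2 on and Marco higher from days 3 to 5 on. Clec4f, Timd4, Vsig4 and Folr2 passed in no window, with differences between -0.12 and 0.28 after day 0. Of all genes, 2.24%, 30%, 34.7% and 52.7% were called on this scale in the 4 windows after day 0. On day 0, 0.0327% were called and Cd163 differed by 0.12 ± 0.42.

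Cd163 amounted to 5.54% and 6.46% of the C1q mean in KO livers of day 0 and 6.93% and 4.39% in WT livers. At days 1 to 2 it was 3.63% to 6.65% in the 4 KO livers and 9.26% to 11.4% in the 4 WT livers, and at days 3 to 5 it was 1.25% to 6.18% in KO and 7.45% to 9.81% in WT. In neither window did the groups overlap. The share of all genes without overlap on this scale was not counted. On day 0, with 2 livers per genotype, 2 other members were also without overlap as percent of the C1q mean. Clec4f lay above in KO and Vsig4 below.

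At days 6 to 9 the medians were 3.93% in KO (2.27% to 7.50%) and 7.99% in WT (5.66% to 9.42%), and at days 10 to 14 they were 2.89% in KO (2.43% to 4.37%) and 7.20% in WT (3.73% to 8.40%). The relative level of Cd163 was 0.453-fold at days 1 to 2 (-1.14 ± 0.30, adjusted p = 0.0346), 0.486-fold at days 3 to 5 (-1.04 ± 0.24, adjusted p = 0.00167), 0.519-fold at days 6 to 9 (-0.95 ± 0.21, adjusted p = 0.000715) and 0.498-fold at days 10 to 14 (SE 0.26 on the log2 scale, adjusted p = 0.00179). From day 3 on these calls held with any 1 library left out, with adjusted p at most 0.0168. The call of days 1 to 2 was lost in 7 such fits. Het livers stood at 3.37% to 5.68% at days 3 to 5, 4.58% to 6.00% at days 6 to 8 and 4.24% to 7.37% at days 10 to 13, after 6.09% and 5.98% on days 0 and 1.

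Marco amounted to 46.0% to 191% of the C1q mean in KO livers of days 10 to 14 (median 67.7%) and 20.3% to 38.7% in WT livers (median 26.3%), with no overlap. Here too the share of all genes without overlap was not counted. The relative level was 1.63-fold in KO at days 3 to 5 (0.70 ± 0.23, adjusted p = 0.0209), 1.80-fold at days 6 to 9 (0.85 ± 0.20, adjusted p = 0.00128) and 3.08-fold at days 10 to 14 (1.62 ± 0.25, adjusted p = 2.03e-06). The 2 later calls held with any library left out, and that of days 3 to 5 was lost in 4 such fits. Het livers measured 60.5% to 109% at days 6 to 8, above the 28.6% to 53.2% of WT livers on those days, a difference that was not tested. These Het livers were all in the set B_1, and the WT livers came from B_1 and B_2.

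Cd5l was 1.35-fold higher relative to C1q in KO at days 10 to 14 (0.43 ± 0.16, adjusted p = 0.0241), a call lost in 5 of the fits with 1 library left out. Clec4f, on the other hand, stayed between 78.6% and 139% of the C1q mean over all 63 libraries (median 103%) while its own level spanned 9.96 to 229 RPKM. The ratio of Marco to Cd163, in RPKM, joins both departures: it was 14.2 to 70.7 in KO livers of days 10 to 14, 7.21 to 13.0 in Het livers of days 10 to 13, and 2.79 to 9.42 in WT livers of days 10 to 14.

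Within the sets of libraries the signs were the same. Relative Cd163 differed by -1.50 and -0.58 at days 3 to 5 and by -0.94 and -0.95 at days 6 to 9, of which the first (adjusted p = 0.0160) and the last (adjusted p = 0.00388) passed. At days 1 to 2 relative Cd163 differed by -0.78 in the first set (adjusted p = 0.292) and -1.26 in the second (adjusted p = 0.0465). Relative Marco passed in neither set at days 3 to 5 (0.74 and 0.67, adjusted p = 0.353 and 0.295) or at days 6 to 9 (1.12 and 0.68, adjusted p = 0.123 and 0.139). Livers of days 10 to 14 were all in the first set.

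**Figure D4:**
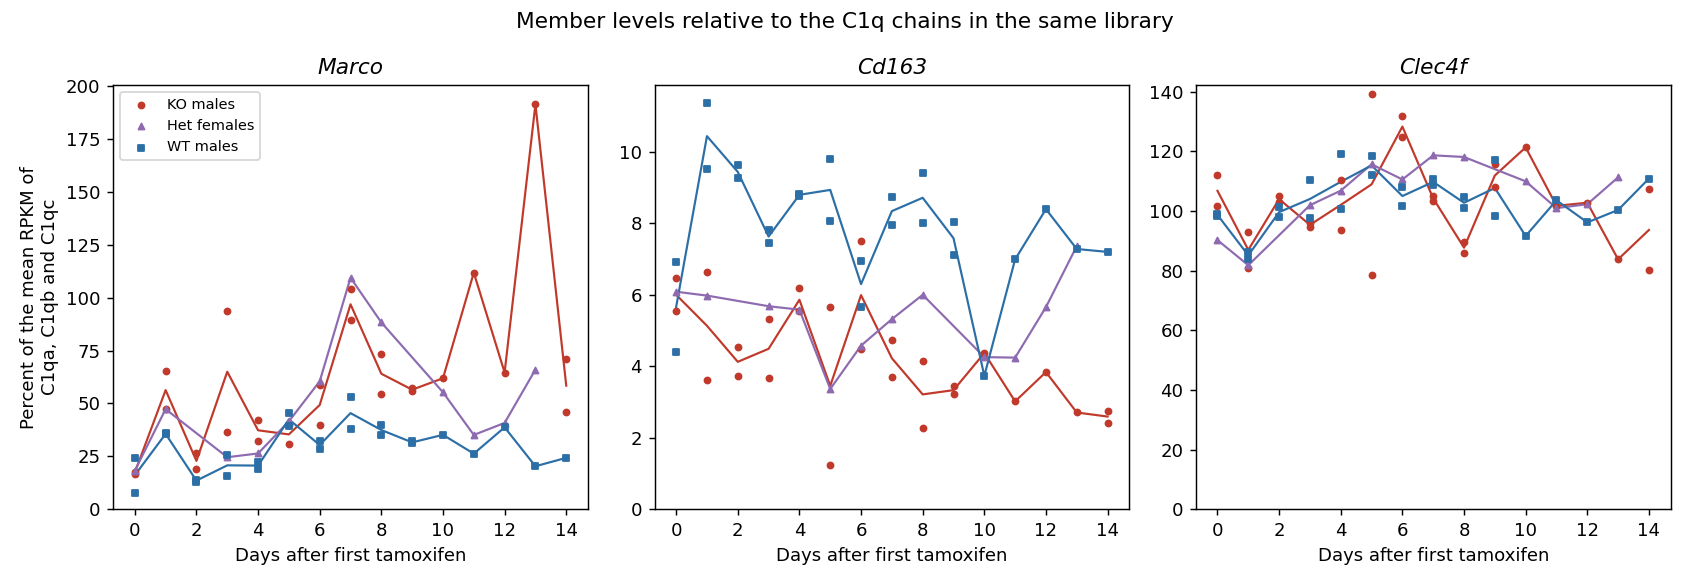
Marco, Cd163 and Clec4f as percent of the mean RPKM of C1qa, C1qb and C1qc in the same liver, by day, with 1 point per liver (KO circles, Het triangles, WT squares) and lines through the day means. Cd163 at days 1 to 5 is 1.25% to 6.65% in KO and 7.45% to 11.4% in WT, whereas Clec4f lies between 78.6% and 139% in all 63 libraries.

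Across the 63 libraries the centred log2 levels of the 10 genes correlated with each other at Pearson's r of 0.492 to 0.996 over 45 pairs, with a median of 0.968. These values describe libraries that share days, genotypes and depth. The C1q chains correlated at 0.990 to 0.996. Cd163 had the lowest median r to the other members, 0.716, followed by Marco at 0.859, and the pair Marco and Cd163 had the lowest r of all, 0.492. Outside the members, the genes most like their mean among 12370 were Sdc3 (a cell-surface proteoglycan, r = 0.986), Cd300ld (0.983), Csf1r (the receptor for macrophage colony-stimulating factor, 0.982), and Itgal and Pilra (both 0.980). Csf1r was also the gene most like Clec4f (0.981), and Pld4 the gene most like the C1q mean (0.985).

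Lists of other genes place the members in the tissue. They were counted and not tested as sets. Of all tested genes, 18% were higher in WT at days 6 to 9 than on day 0. Of 17 pan-macrophage genes, 17 were higher in WT at days 6 to 9 than on day 0, with a median of 2.13 beside 2.23 for the members, among them Cd14 (2.59) and Spi1, which encodes PU.1 (2.44). Of 16 other Kupffer cell genes 13 were higher and 1, the complement gene C6 (-1.51), was lower, with a median of 1.37. Of 15 monocyte and recruited macrophage genes 11 were higher, including Chil3 (4.04).

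Other cell types moved in the same WT livers, beside 18% of all tested genes called higher at days 6 to 9. All 6 tested neutrophil markers were higher, and the 8 in the table summed to 11.8 to 43.2 RPKM at days 6 to 9 and 0.959 to 1.99 RPKM on day 0. Of 9 markers of T, B and NK cells 6 were higher, and the 11 in the table summed to 9.02 to 18.1 RPKM, against 2.22 to 3.26 RPKM on day 0. Of 10 sinusoidal endothelial markers 6 were higher, such as Lyve1 (1.52), with a median of 0.53. Of 10 hepatocyte markers 2 were lower and 0 higher after centring (median -0.43), while their summed RPKM was 55419 to 85043 at days 6 to 9 and 37849 to 50727 on day 0. The erythrocyte gene Alas2, an enzyme of haem synthesis, was lower (-3.63), and the 2 erythrocyte genes of the table summed to 4.93 to 10.2 RPKM at days 6 to 9 and 47.7 to 54.8 RPKM on day 0, without overlap. Their sum was 23.0 to 26.1 RPKM at days 1 to 2 and 6.35 to 20.3 RPKM at days 3 to 5. Day 0 was thus the highest of these WT windows, and days 1 to 2 also lay above days 3 to 5. The part of these shifts in the rise of the 10 genes was not tested.

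Genes with roles next to those of the members were read in the same way in WT at days 6 to 9, again beside 18% of all genes higher. Of 8 tested signals for macrophage growth and niche 4 were higher, among them Csf1, the ligand of Csf1r (1.75), Tgfb1 (1.53) and Dll4 (1.14). Of 10 genes for uptake of dying cells 7 were higher, such as the receptor tyrosine kinases Axl (1.96) and Mertk (0.82). Of 10 haemoglobin and iron genes 6 were higher, including the metal transporter Slc11a1 (2.12). Of 10 partners of C1q and early complement genes 2 were higher, C3 (1.12) and Cfi, whose product cleaves C3b (0.41). That list had a median of 0.15, beside changes of 1.95 to 2.21 for the C1q chains.

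Between KO and WT at days 10 to 14 the pattern was uneven, beside 38.6% of all tested genes higher in KO. Monocyte and recruited macrophage genes were higher in KO in 14 of 15 (median 1.94), including Lgals3 (2.70), Cd9 (2.14) and Spp1 (2.05), against 11 of 17 pan-macrophage genes (median 0.73), 8 of 16 other Kupffer genes (median 0.40) and 7 of the 10 members (median 0.58). The monocyte list summed to 246 to 1489 RPKM in KO livers and 63.9 to 116 RPKM in WT livers, without overlap. In deposited RPKM, 52.5% of all tested genes also had KO livers wholly above WT livers at days 10 to 14, and 23.2% after centring. At days 6 to 9, when 1 member was higher and 1 lower, 13 of those 15 were already higher in KO (median 1.19), Gpnmb by 6.15. Of all tested genes, 53.9% were called in that window in either direction, which is an upper bound for the share higher in KO.

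Genes for uptake of dying cells were higher in KO at days 10 to 14 in 8 of 10, such as Mfge8 (2.12) and Gas6 (1.67). Of all tested genes 38.6% were higher in KO in that window, and 6067 of 12221 were called in either direction. Haemoglobin and iron genes were higher in 6 of 10 and lower in 1, with Blvrb at 2.04 and Fth1 at 1.30, while the haemoglobin receptor Cd163 stood at -0.49. C1s1, which encodes a protease that acts with C1q, was lower in KO (-1.27), while the C1q chains were higher. Hepatocyte markers were lower in 6 of 10 (median -1.19), summing to 14999 to 33958 RPKM in KO livers and 71219 to 90067 RPKM in WT livers. Stellate markers were higher in 8 of 10 and duct markers in 5 of 6, and 0 of 6 neutrophil markers passed with limma (median 0.33). The part of these shifts in the members' differences was not tested.

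The 10 members together summed to 1062 to 2143 RPKM in KO livers of days 10 to 14 (median 1485), 828 to 1526 RPKM in Het livers of days 10 to 13 (median 1263) and 299 to 912 RPKM in WT livers of days 10 to 14 (median 513). On day 0 the sums were 108 and 112 RPKM in KO, 193 RPKM in Het and 120 and 61.9 RPKM in WT livers. Het livers of days 10 to 13 also had 12 of 16 other Kupffer genes and 16 of 17 pan-macrophage genes higher than at days 0 to 1, and 12 of 14 tested monocyte genes. Of all genes tested in Het, 13.5% were higher.

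**Figure D5:**
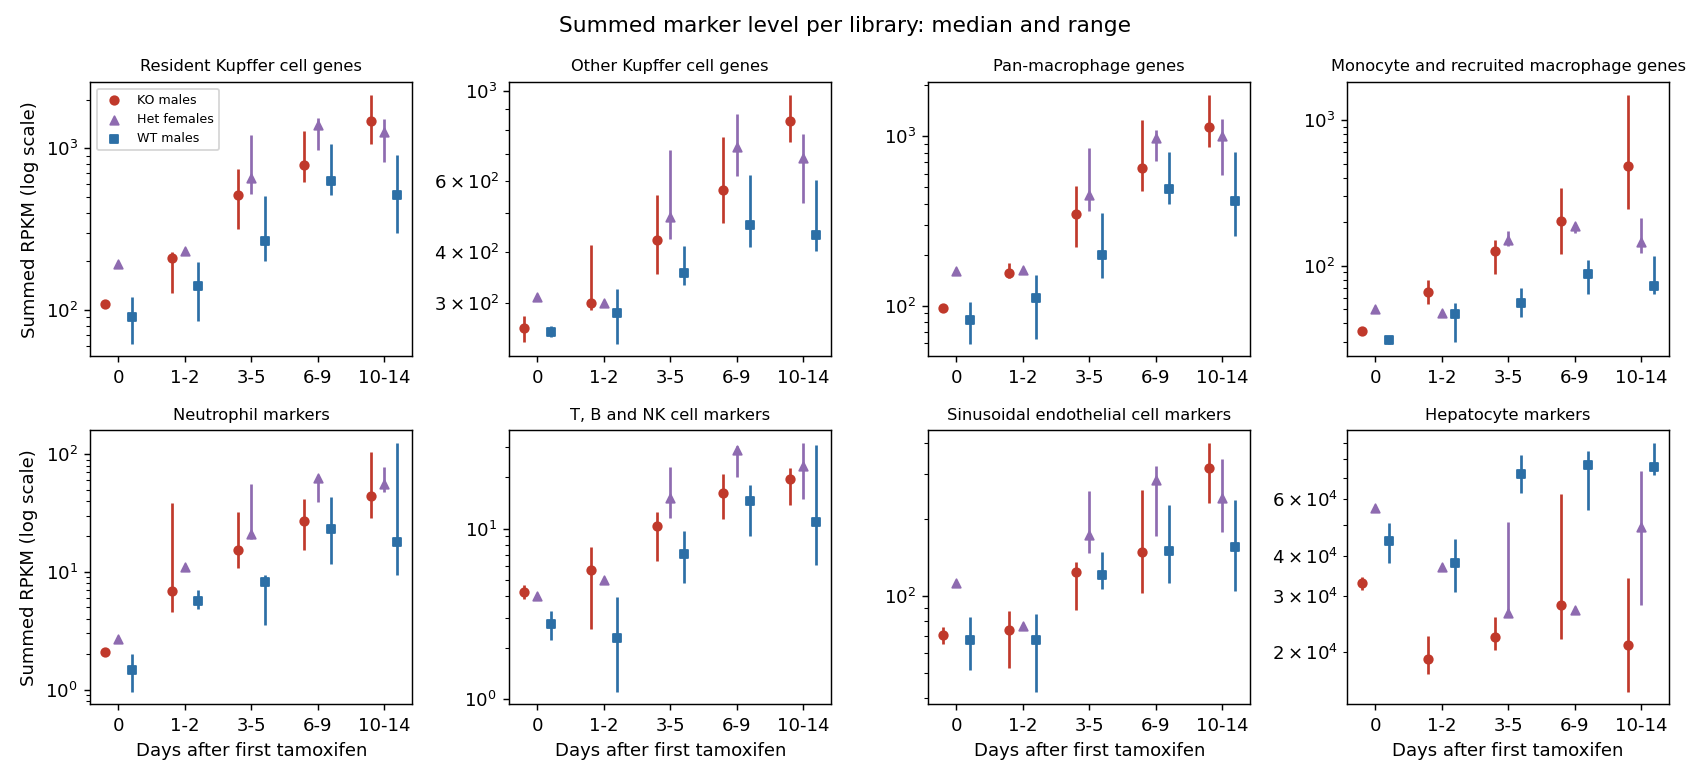
Summed RPKM of the 10 genes and of 7 marker lists (log axes) by window of days, as the median and the range over KO, Het and WT livers. At days 10 to 14 the members sum to a median of 1485 in KO, 1263 in Het and 513 in WT livers, and the monocyte list to 482 in KO and 72.5 in WT.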

How the data were processed

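Poly(A) RNA of single livers was sequenced by the authors as stranded libraries of 50-nucleotide single-end reads, per the labels' protocols. The submitters' processing notes name mm9, TopHat2 2.0.13, Bowtie 1.1.2 and edgeR, without their roles. The deposited table holds log2 values of RPKM for 15616 genes and 63 libraries, made by the authors with a constant of 8.9e-05 added, so its minimum is -13.4557. Low values of 993 weakly expressed genes were whole reads in 99.2% of cases (within 0.05 reads), which gave the estimated depths (17.6M to 55.0M reads, median 35.9M); 1 read over 2000 bp of exon is worth 0.00965 to 0.0355 RPKM. These limits cover counting error only.

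The constant was removed for levels. Tests used limma 3.58.1 in R 4.3.3, with its intensity trend, on log2 values centred per library; values as deposited had to pass with the same sign. Figures and summaries used Python 3.11.15. Genes with log2 of at least 0 in at least 4 libraries (12221 in the 51 male libraries, 12380 in all 63) or 2 (11919 in Het) were tested. In males each genotype on each day had its own mean (21 residual degrees of freedom). The fit of all 63 libraries treated males likewise and gave Het females 1 mean per window (29). Het females alone were fitted with 1 mean per window (8). Windows are unweighted means over days. Days 10 to 13 have a single library per genotype, whose spread is borrowed from the days with a pair. The 51 males include a second KO column of day 14 that carries no number. The planned test for counts was not needed, since the table holds no counts. P-values were two-sided and adjusted by Benjamini-Hochberg within each comparison, with a threshold of 0.05. In fits of males they measure the spread between livers of the same genotype and day. Het females had 1 library per day, so in fits with them the spread also includes change over the days of a window. On 8 of 10 days with a pair of livers per genotype, replicates 1 and 2 were in the sets marked B_1 and B_2 in the labels, in KO and WT alike, so the numbers pair livers by set there; on days 2 and 9 both were in B_2. Deviations of same-numbered livers correlated by -0.055 to 0.286, over 0.1 on 4 of the 10 days. The fits were tested on simulated data.

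The 10 members, the other lists and the rule for named genes were chosen with earlier results of these data known. The rule took every member and, from each other list, at most 3 genes a comparison, those with the smallest limma p. Genes named from these lists are thus not always those with the largest change. Alternatives were another scaling, a constant of 0.1, no filter, the set of libraries as a term or taken singly, the replicate number as a block and each library left out. The fits with the replicate number left out the KO column of day 14 that carries no number. The scale relative to C1q, leaving out WT day 0 replicate 2 with KO day 5 replicate 1, and days 0 to 1 as the baseline were chosen after seeing the data. Promoters are from RefSeq, GRCm38.p6. C1qa had no promoter entry and is named only.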

Additional observations from a re-analysis of the deposited data

How the results depend on the processing

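No value reversed its direction among the calls under any setting tried. Of 199 counts of members called under settings other than leaving out 1 library, 168 were within 1.5 times the reported count and 31 were not. The cause of these shifts was not tested, beyond fewer samples in the settings that leave libraries out.

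KO minus WT, days 1 to 2 (0 reported): 1 member passed on deposited values alone and 1 without both WT day 0 replicate 2 and KO day 5 replicate 1. KO minus WT, days 3 to 5 (1 reported): 7 on deposited values alone, 2 with log2(RPKM + 0.1), 2 without a filter, 2 with the replicate block, 8 without that pair of libraries, and 0 within the first or the second set. KO minus WT, days 6 to 9 (2 reported): 0 within either set. WT, days 3 to 5 (10 reported): 0 within the first set, 6 within the second and 3 without the pair of libraries. WT, days 10 to 14 (10 reported): 6 within the first set. KO, days 1 to 2 (0 reported): 4 on deposited values alone and 1 each with log2(RPKM + 0.1), the set as a term, the replicate number as a term of the block and without the pair. KO, days 3 to 5 (9 reported): 5 within either set. The change in KO minus the change in WT, days 10 to 14 (0 reported): 5 on deposited values alone, 2 without the pair, and 1 each with quantile normalization, log2(RPKM + 0.1), the set as a term, the replicate block and days 0 to 1 as the baseline. Het, days 3 to 5 (8 reported): 0 with quantile normalization and 5 without a filter.

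Leaving out each library in turn gave these ranges of members called. KO minus WT gave 0 to 0 on day 0, 0 to 1 at days 1 to 2, 1 to 8 at days 3 to 5, 1 to 2 at days 6 to 9 and 2 to 9 at days 10 to 14. WT over time gave 0 to 1, 0 to 10, 10 to 10 and 9 to 10 in the 4 windows after day 0. KO over time gave 0 to 1, 6 to 10, 9 to 10 and 9 to 10. The difference of these changes gave 0 to 0 in the first 3 windows and 0 to 1 in the last. Het gave 0 to 8 at days 3 to 5, 10 to 10 at days 6 to 8 and 9 to 10 at days 10 to 13, and its change minus that of WT gave 0 to 0. KO minus WT at days 3 to 5 gave 5 without KO day 3 replicate 2.

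The replicate block, by which same-numbered livers of a set are paired, added Timd4 at days 10 to 14 of KO minus WT (8 members in place of 7) and the calls given above, and changed no other call of a member. Since it also left out the unnumbered KO liver of day 14, pairing and that omission cannot be told apart. On deposited values alone the counts over all genes were 2253 for KO minus WT at days 1 to 2, 6971 at days 3 to 5, 2890 for KO at days 1 to 2 and 7129 for the difference of changes at days 10 to 14, out of 12221. Counts of all genes called moved by over 1.5 times between settings, for example between 1556 and 6971 (4410 reported) for KO minus WT at days 3 to 5, 2062 and 8105 (6586) at days 6 to 9, 566 and 9054 (2357) for WT at days 6 to 9, 324 and 9564 (2067) for WT at days 10 to 14, and 3712 and 10832 (4948) for KO at days 10 to 14.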
